A study of Rattus norvegicus with 12 samples.

Results

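Livers of rats given caffeine together with dextromethorphan (CAF+DEX) were compared with livers of rats given dextromethorphan without caffeine (DEX), across the microRNA genes measured in both. The features compared were those above 0 in at least 3 of the 6 libraries, which gave 272 of the 444 features in the table. Of these, 266 were microRNAs by name or listed type and 6 were not. All rats were male Sprague-Dawley (Jcl:SD), an outbred laboratory stock, and were 7 weeks old when dosing by mouth began. CAF+DEX rats received caffeine at 120 mg/kg and dextromethorphan hydrobromide monohydrate at 100 mg/kg, and DEX rats received dextromethorphan hydrobromide monohydrate at the same dose. Beside these stood CAF rats, given caffeine at 120 mg/kg, and Control rats, given the vehicle, sterile distilled water, which all groups received. Dosing went on for 5 consecutive days, each group held 5 rats, and liver was taken 1 h after the last dose. Each group is represented here by 3 libraries, which the labels do not tie to single rats, and the p-values here speak of the spread among these samples. Whole liver was used, and in bulk tissue fewer cells of a type and less RNA per cell cannot be told apart.

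A microRNA is a short RNA that pairs with messenger RNAs, mainly through its seed, bases 2 to 8 of the mature strand, and lowers their stability or translation. MicroRNAs with the same seed form a family whose members can act on overlapping sets of messages. In liver, hepatocytes, blood cells, stellate cells and bile duct cells each carry characteristic microRNAs, so a liver library is a mixture of these sources. Caffeine blocks adenosine receptors, dextromethorphan is a cough suppressant that acts on glutamate and sigma receptors, and both are cleared by hepatic cytochrome P450 enzymes. The comparison asks which liver microRNAs differ when caffeine is added to dextromethorphan.

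The members on which the results turn are shown first by their mature sequences, 5′ to 3′, with the seed in capitals. They are RefSeq sequences listed with build GRCr8, and 241 of the 272 features matched a mature sequence there. Some of those matched, such as Scarna3 and Snora58, carry names of other kinds of RNA. The table counts reads per gene, so the strands of a hairpin are not separated. The first pair shares the seed of miR-146, the next 5 share the seed of miR-15 and miR-16, the 4 after them share that of miR-34, and the next pair that of miR-148. miR-142 and miR-218a close the set because the first is a blood cell microRNA and the second was among the 3 features with the smallest interaction p.
rno-miR-146a-5p: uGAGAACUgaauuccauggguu
rno-miR-146b-5p: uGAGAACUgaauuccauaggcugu
rno-miR-15b-5p: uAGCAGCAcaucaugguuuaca
rno-miR-16-5p: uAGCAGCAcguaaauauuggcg
rno-miR-195-5p: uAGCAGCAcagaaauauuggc
rno-miR-497-5p: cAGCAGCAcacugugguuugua
rno-miR-322-5p: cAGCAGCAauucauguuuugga
rno-miR-34a-5p: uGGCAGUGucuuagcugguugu
rno-miR-34b-5p: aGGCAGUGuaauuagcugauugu
rno-miR-34c-5p: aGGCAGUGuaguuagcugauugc
rno-miR-449a-5p: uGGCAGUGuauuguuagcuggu
rno-miR-152-3p: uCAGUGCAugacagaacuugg
rno-miR-148a-3p: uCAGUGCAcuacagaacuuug
rno-miR-142-3p: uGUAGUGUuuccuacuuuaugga
rno-miR-218a-5p: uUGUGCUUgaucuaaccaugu

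The libraries held 3145320 to 3360465 reads in CAF+DEX and 2941725 to 3363795 reads in DEX, as recovered from the deposited FPKM, and 258 to 273 features were above 0 in a library. The hepatocyte list took 38.6, 39.2 and 42.3% of reads in CAF+DEX, against 39.5, 39.5 and 38.7% in DEX, and miR-122 was not analysed here. Over the 135 features averaging at least 100 reads, the median absolute log2 deviation of a library from the other two of its group was 0.171 for CAF+DEX library 5 and 0.0651 to 0.133 for the other 11 libraries. Without CAF+DEX library 5 the comparison of CAF+DEX with DEX gave 0 features past the adjusted threshold and 18 below an unadjusted p of 0.05. Of the 272 features, 226 were above 0 in all 6 libraries and 15 in exactly 3. Those 15 averaged 0.22 to 1.17 reads over the 6 libraries, and the 13 features above 0 in exactly 2, which were left out, averaged 0.33 to 0.92 reads.

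Most liver microRNAs differed little between CAF+DEX and DEX. With limma and Benjamini-Hochberg adjustment over all features, 0 of 272 (0%) had an adjusted p under 0.05. An unadjusted p under 0.05 was found for 19 features (6.99%), where 13.6 are expected at that level, and limma-voom on the recovered reads gave 0 past adjustment and 22 unadjusted. Of the 19, 7 were higher (2.57%) and 12 lower (4.41%) in CAF+DEX, and under median scaling the split turned to 16 higher and 8 lower. On the log2(FPKM + 3.8) scale, on which all fold changes here are given, the median log2 fold change was -0.02, with 123 features higher (45.2%) and 149 lower (54.8%). That majority turned under some scalings, with 55.5% higher under median scaling and 51.1% higher and 46.7% lower under quantile normalization. Of the 213 features averaging over 3 reads in the 6 libraries, 151 (70.9%) lay within 0.2 of no difference and 16 lay more than 0.5 away. The abundant features were measured closely enough to bound a difference. Of the 135 averaging at least 100 reads, 112 had a 95% interval of the limma fit that stayed between -0.5 and 0.5.

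The values of the groups did not overlap for 40 features (14.7%), of which 26 had all CAF+DEX libraries below all DEX libraries (9.56%) and 14 had them above (5.15%). An exact permutation test of 3 libraries against 3 cannot give a two-sided p below 0.1, so such a separation is a description. Between 3 and 100 reads, 50 of 78 features were lower in CAF+DEX and the median log2 fold change was -0.11, and at 10000 reads or more 18 of 42 were lower and the median was 0.01.

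**Figure D1:**
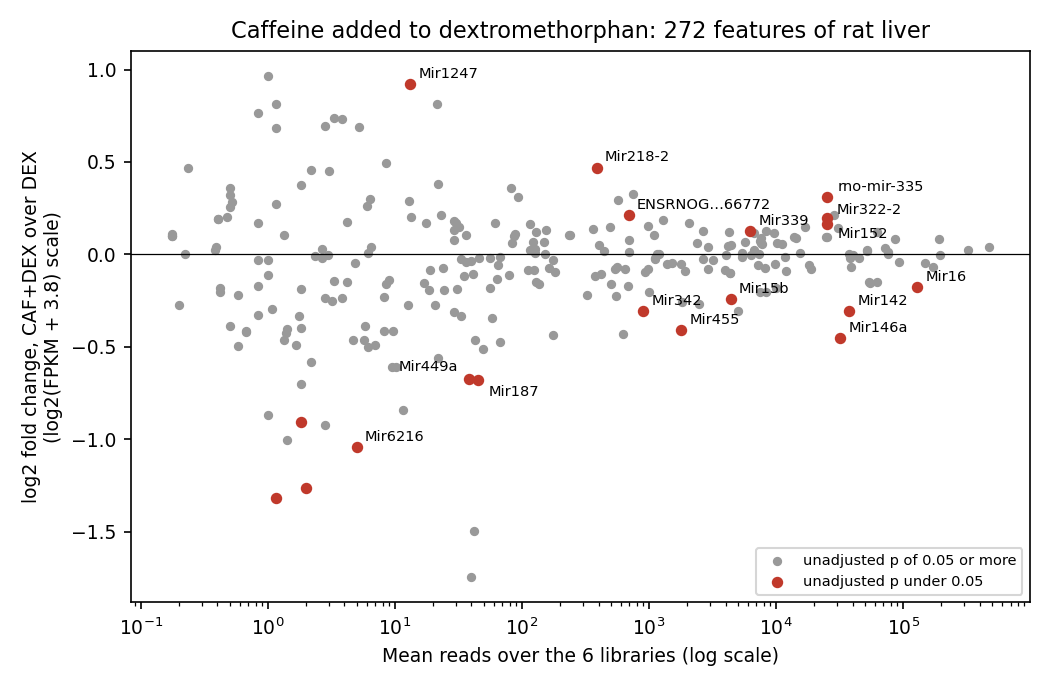
Log2 fold change of CAF+DEX over DEX (vertical axis) against mean reads over the 6 libraries (horizontal axis, log scale) for the 272 features. Red points are the 19 with an unadjusted p under 0.05, labelled where they average over 3 reads, and Mir146a lies farthest below 0 among features averaging at least 100 reads.

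Mir146a had the smallest p. This microRNA, which restrains innate immune signalling by targeting Irak1 and Traf6, lies on chromosome 10 at 27848516 to 27848610 (rn7, ENSRNOG00000035466). It had 80688, 98002 and 87801 FPKM in CAF+DEX, against 127851, 119513 and 116049 FPKM in DEX, so all CAF+DEX libraries lay below all DEX libraries. The means were 88830 ± 8703 FPKM in CAF+DEX and 121138 ± 6066 FPKM in DEX (SD, n = 3 each). The log2 fold change was -0.45 (SE 0.09, 95% interval -0.66 to -0.25), with a Benjamini-Hochberg adjusted p = 0.123 in limma. Leaving out any 1 CAF+DEX or DEX library left it between -0.52 and -0.38, and it passed the threshold under quantile normalization and without Control library 3. Mir146b, encoded elsewhere but with the same seed and chosen after its values were seen, had 1140, 1142 and 903 FPKM in CAF+DEX, against 1202, 1139 and 1355 FPKM in DEX. Its groups overlapped, and its log2 fold change was -0.22 (SE 0.14), or -0.11 without CAF+DEX library 5.

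Mir142, found throughout the blood cell lineages, had 83044, 102689 and 97311 FPKM in CAF+DEX, against 107645, 135052 and 107586 FPKM in DEX (chromosome 10, 72557857 to 72557967). All CAF+DEX libraries were below all DEX libraries, with a log2 fold change of -0.30 (SE 0.12, Benjamini-Hochberg adjusted p = 0.54 in limma). DEX library 2 was the highest of the 6, and without it the log2 fold change was -0.20. Mir342, another blood cell microRNA, had 2662, 2628 and 2283 FPKM in CAF+DEX, against 2788, 3639 and 2975 FPKM in DEX. Its groups did not overlap either, and its log2 fold change was -0.31 (SE 0.12, Benjamini-Hochberg adjusted p = 0.549 in limma), or -0.19 without DEX library 2.

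The other members of the leukocyte list differed less. Mir150, a microRNA of mature lymphocytes, had 9016, 13248 and 8875 FPKM in CAF+DEX, against 9597, 13407 and 9749 FPKM in DEX. Mir155, which marks activated lymphocytes and macrophages, had 1091, 733 and 678 FPKM in CAF+DEX, against 821, 846 and 832 FPKM in DEX. Mir223, the neutrophil and monocyte microRNA, had 14507, 17148 and 13439 FPKM in CAF+DEX, against 13612, 16036 and 15776 FPKM in DEX. In each of these 3 the groups overlapped, and the log2 fold changes were -0.08 (SE 0.18), -0.03 (SE 0.17) and -0.01 (SE 0.10). The leukocyte list as a whole had 6 of 6 members lower, or 4 of 6 under median scaling and under quantile normalization. Its median was -0.19 on the log2 scale, against -0.02 for all features, and it was -0.11 without DEX library 2 and -0.30 without CAF+DEX library 2. Together its members took 1.96, 2.40 and 2.16% of reads in CAF+DEX, against 2.67, 2.97 and 2.59% in DEX, without overlap. That sum is mostly Mir142 and Mir146a, which held 86.2 to 88.4% of the reads of the list in CAF+DEX and 88.8 to 90.1% in DEX. The other 4 members took 0.270, 0.332 and 0.250% of reads in CAF+DEX, against 0.264, 0.332 and 0.291% in DEX, and overlapped.

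The erythroid microRNAs had 3 of 3 members lower under each scaling tried, and the list median was -0.23 on the log2 scale, or -0.15 without DEX library 2. Mir144, which is made with Mir451a in red cell precursors, had 7888, 8791 and 8305 FPKM in CAF+DEX, against 8472, 11777 and 10097 FPKM in DEX. Mir451a had 2100, 2355 and 2068 FPKM in CAF+DEX, against 2356, 2686 and 2590 FPKM in DEX. rno-mir-486, abundant in red cells and muscle, had 601, 602 and 471 FPKM in CAF+DEX, against 484.9, 750 and 643 FPKM in DEX. For Mir451a the highest CAF+DEX value lay just below the lowest DEX value, and Mir144 and rno-mir-486 overlapped. Of the 3, 0 had an unadjusted p under 0.05, against 6.99% of all features. The erythroid list took 0.0847, 0.0940 and 0.0870% of reads in CAF+DEX, against 0.0906, 0.122 and 0.107% in DEX. Those shares overlapped. The part of blood cell content in the values of Mir146a, Mir142 and Mir342 was not tested.

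**Figure D2:**
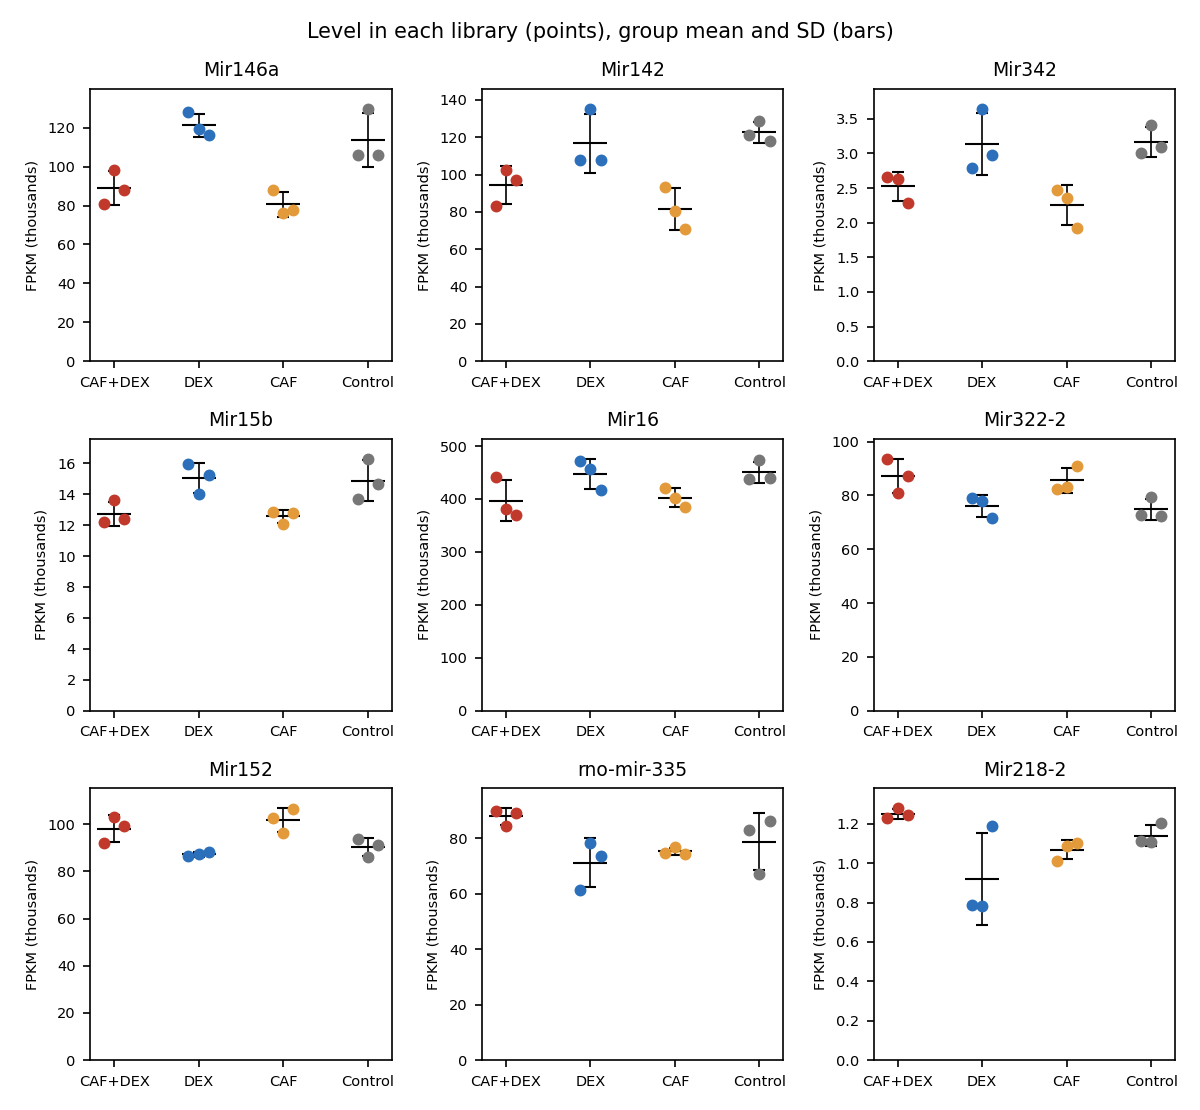
FPKM divided by 1000 (vertical axes, starting at 0) of 9 microRNAs in each library of CAF+DEX, DEX, CAF and Control, with group means and SD as bars. Mir146a, Mir142, Mir342 and Mir15b are lower in CAF+DEX than in DEX and in CAF than in Control without overlap, Mir322-2 and Mir152 are higher in both without overlap, and Mir218-2 has 1 DEX library close to the CAF+DEX libraries.

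The family with the miR-15 and miR-16 seed, which restrains cell cycle entry by targeting cyclins, had members on both sides of 0. Mir15b (chromosome 2, 153245200 to 153245297) had 12191, 13640 and 12406 FPKM in CAF+DEX, against 15946, 14000 and 15237 FPKM in DEX, without overlap. Its log2 fold change was -0.24 (SE 0.08, Benjamini-Hochberg adjusted p = 0.507 in limma), or -0.13 under quantile normalization. Its neighbour Mir16 (chromosome 2, 153245349 to 153245443) had 440907, 381454 and 368908 FPKM in CAF+DEX, against 471253, 455855 and 416291 FPKM in DEX. CAF+DEX library 1 lay above DEX library 4, so the groups overlapped, with a log2 fold change of -0.18 (SE 0.07, Benjamini-Hochberg adjusted p = 0.549 in limma) that turned to 0.06 under quantile normalization. Mir15a (chromosome 15), chosen after its values were seen, had a log2 fold change of -0.21 (SE 0.09). Mir322-2 on the X chromosome (132806594 to 132806688), the rat counterpart of human miR-424, ran the other way. It had 93648, 80993 and 87234 FPKM in CAF+DEX, against 79003, 77894 and 71526 FPKM in DEX, again without overlap. Its log2 fold change was 0.20 (SE 0.07, Benjamini-Hochberg adjusted p = 0.507 in limma). Mir497 and Mir195, a pair on chromosome 10 with the same seed that was chosen after the values were seen, had log2 fold changes of 0.11 (SE 0.08) and 0.06 (SE 0.10), and the groups overlapped in both.

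Mir322-2 is the last of 6 microRNA genes on the X chromosome between 132801380 and 132806688, a group singled out after its values were seen. All 6 were higher in CAF+DEX under the main scaling, median scaling and quantile normalization, and the median was 0.12 on the log2 scale under the main scaling. Mir503, which acts with Mir322-2 in cell cycle exit in mouse muscle cells, had 6119, 5904 and 5897 FPKM in CAF+DEX, against 5410, 5237 and 5087 FPKM in DEX. Those groups did not overlap, with a log2 fold change of 0.19 (SE 0.10). Mir542 had 0.12 (SE 0.07), and Mir450b-1, Mir351 and Mir450a1 had 0.11 (SE 0.16), 0.08 (SE 0.14) and 0.02 (SE 0.20). These last 3 turned slightly negative without CAF+DEX library 1, so their direction rests on that library, and Mir450a1 also turned without each of 3 others.

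The family with the miR-34 seed had 4 of 4 members lower in CAF+DEX, or 3 of 4 under quantile normalization, where Mir34c turned. The list median was -0.44 on the log2 scale. Mir34a, a direct target of p53, carries nearly all reads of the family and had 14828, 13497 and 12490 FPKM in CAF+DEX, against 16057, 15157 and 19487 FPKM in DEX. The groups did not overlap, and its log2 fold change was -0.31 (SE 0.18, Benjamini-Hochberg adjusted p = 0.616 in limma), or -0.20 without DEX library 4. Mir449a, best known from multiciliated cells, had 26, 33 and 29 reads in CAF+DEX, against 34, 47 and 61.5 reads in DEX, with a log2 fold change of -0.67 (SE 0.26, Benjamini-Hochberg adjusted p = 0.54 in limma). Mir34b had 17, 20 and 15.5 reads in CAF+DEX, against 20, 27 and 31 reads in DEX, with a log2 fold change of -0.56 (SE 0.29). Mir34c, transcribed with Mir34b and chosen after its values were seen, had 59, 61.5 and 62.5 reads in CAF+DEX, against 53, 70 and 75 reads in DEX, and its log2 fold change was -0.13 (SE 0.19). In FPKM the groups of Mir34b and Mir449a did not overlap and those of Mir34c did.

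**Figure D3:**
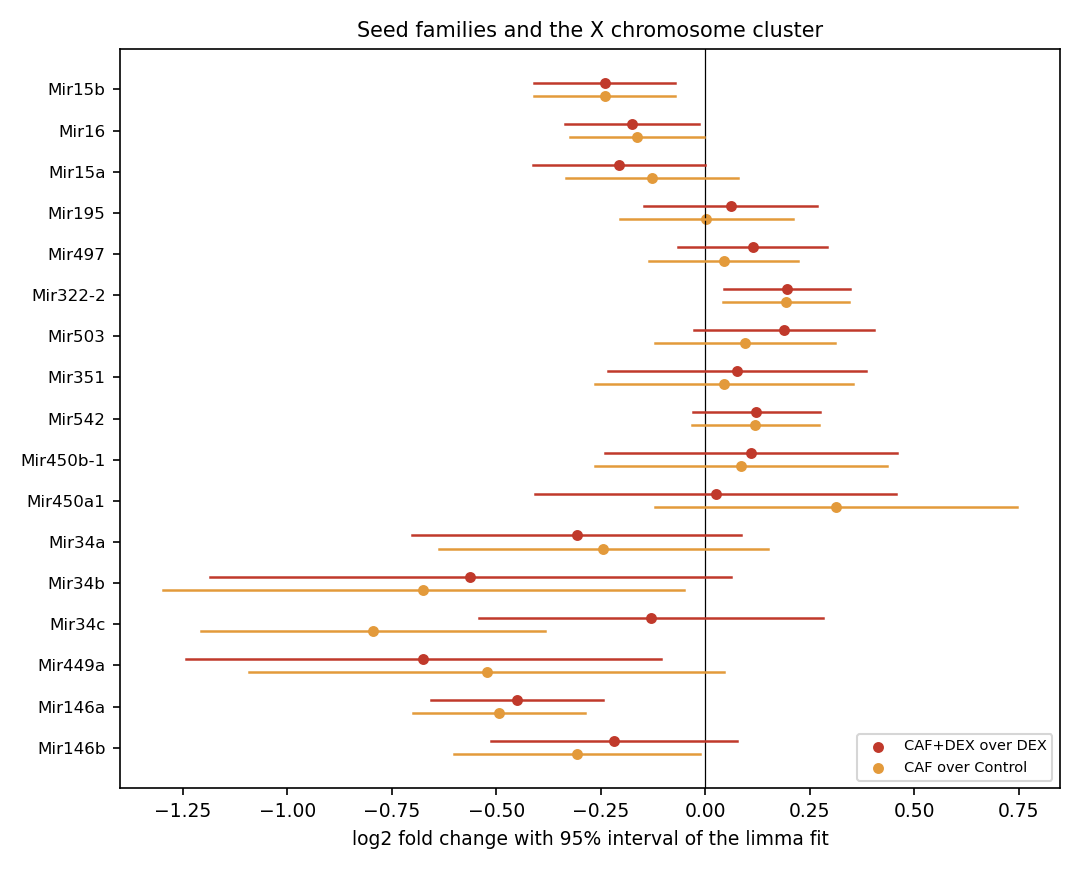
Log2 fold changes (horizontal axis) with 95% intervals of the limma fit for the miR-15 and miR-16 seed family, the X chromosome group, the miR-34 seed family and Mir146a with Mir146b, as CAF+DEX over DEX (red) and CAF over Control (orange). Mir15b, Mir16 and Mir15a lie below 0 and Mir322-2 above 0 in both comparisons, and the 4 members of the miR-34 family lie below 0 in both.

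The hepatocyte list was balanced, with 6 members higher and 6 lower and a list median of -0.00 on the log2 scale, though median scaling put 11 of 12 above 0. Of its 12 members, 1 had an unadjusted p under 0.05, against 6.99% of all features. The 12 include Mir194-1 with Mir194-2 and Mir365-1 with Mir365b, and each of these pairs shares 1 mature sequence. Mir192, a hepatocyte microRNA and the most abundant of the features compared, had 1320730, 1277680 and 1464470 FPKM in CAF+DEX, against 1298620, 1349370 and 1299820 FPKM in DEX. Those groups overlapped, and the log2 fold change of 0.04 (SE 0.06) had a 95% interval of -0.09 to 0.17. Among the other 4 most abundant features, Mir101-2, a regulator of the histone methyltransferase Ezh2, had 0.02 (SE 0.06), Mirlet7f2 had -0.01 (SE 0.05) and Mir26b had 0.08 (SE 0.05). Mir21, which rises in injured and regenerating liver, had 698358, 525614 and 487422 FPKM in CAF+DEX, against 549708, 572976 and 652418 FPKM in DEX. CAF+DEX library 1 was the highest and library 5 the lowest of all 6, and the log2 fold change was -0.07 (SE 0.11).

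Mir455, the member of the hepatocyte list that stood lowest, had 6102, 4931 and 7436 FPKM in CAF+DEX, against 10494, 6812 and 7322 FPKM in DEX. The groups overlapped, and the log2 fold change of -0.41 (SE 0.16, Benjamini-Hochberg adjusted p = 0.54 in limma) was -0.22 without DEX library 1 and -0.26 without CAF+DEX library 2. Mir802, which impairs glucose tolerance when raised in mouse liver, stood highest, with 82733, 99738 and 112992 FPKM in CAF+DEX, against 82718, 83401 and 87094 FPKM in DEX. Its log2 fold change was 0.21 (SE 0.10, Benjamini-Hochberg adjusted p = 0.581 in limma), and CAF+DEX library 1 lay within the DEX range. The value was 0.11 without CAF+DEX library 5, 0.33 without CAF+DEX library 1 and 0.11 under quantile normalization.

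Mir152 (chromosome 10, 81832936 to 81833020), known as a regulator of the DNA methyltransferase Dnmt1, had 91865, 103110 and 99079 FPKM in CAF+DEX, against 86325, 87199 and 88326 FPKM in DEX. The groups did not overlap, and the log2 fold change was 0.17 (SE 0.06, Benjamini-Hochberg adjusted p = 0.507 in limma). Its seed mates Mir148a and Mir148b, chosen after their values were seen, had log2 fold changes of -0.04 (SE 0.08) and 0.02 (SE 0.06), with overlapping groups. rno-mir-335 (chromosome 4, 59357769 to 59357866), which lies within the imprinted gene Mest in mouse and human, had 89940, 84382 and 89079 FPKM in CAF+DEX, against 61200, 78403 and 73700 FPKM in DEX. All CAF+DEX values lay above all DEX values, with a log2 fold change of 0.31 (SE 0.10, Benjamini-Hochberg adjusted p = 0.507 in limma). DEX library 1 was the lowest, and without it the log2 fold change was 0.21, or 0.17 under quantile normalization with all libraries.

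The microRNAs listed as regulators of P450 enzymes and nuclear receptors had 9 members higher and 7 lower, and the list median was 0.04 on the log2 scale. Mir27b, which targets CYP3A4 and CYP1B1 messages in human cells, had 179444, 200778 and 206284 FPKM in CAF+DEX, against 183822, 178285 and 176575 FPKM in DEX, with overlap and a log2 fold change of 0.12 (SE 0.06). Mir152, Mir449a and Mir34a, which this list also holds, are given above. The lipid, cholesterol and glucose list had 8 members higher and 8 lower, and its median was -0.00 on the log2 scale. Under median scaling 11 were higher and 5 lower in this list and likewise in the P450 list. In it Mir103a2, which lowers insulin sensitivity in mouse liver, had 15205, 15266 and 15247 FPKM in CAF+DEX, against 16383, 16372 and 16330 FPKM in DEX. That separation was complete but small, with a log2 fold change of -0.10 (SE 0.06). Mir29b1 and Mir29b-3, which target collagen messages and share 1 mature sequence and therefore 1 signal, had 0.05 (SE 0.05 for each).

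The let-7 family, which opposes growth, had 8 of 9 members lower, or 6 of 9 under median scaling, and the list median was -0.07 on the log2 scale, or -0.16 without CAF+DEX library 2 and -0.02 without CAF+DEX library 5. Mirlet7b had 197822, 198786 and 172554 FPKM in CAF+DEX, against 198861, 207600 and 225398 FPKM in DEX, with a log2 fold change of -0.15 (SE 0.08), or -0.08 without CAF+DEX library 5. The groups did not overlap, but CAF+DEX library 2 and DEX library 1 nearly met. Mirlet7c1 and Mirlet7c2, which share a mature sequence, both had -0.15 with overlapping groups. The miR-17-92 list had 6 members higher and 8 lower, or 9 higher and 5 lower under median scaling, and the list median was -0.01 on the log2 scale. Mir20b, from its X chromosome paralog, had 203, 278 and 252 FPKM in CAF+DEX, against 297.4, 377.6 and 342.7 FPKM in DEX, without overlap and with a log2 fold change of -0.47 (SE 0.22). Its neighbour Mir363 averaged 7.67 reads in CAF+DEX and 15.3 reads in DEX. Mir19b2 beside them had a log2 fold change of 0.09 (SE 0.08) that turned to -0.01 under quantile normalization. It shares a mature sequence with Mir19b1 on chromosome 15, so its value does not measure the X chromosome transcript alone.

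**Figure D4:**
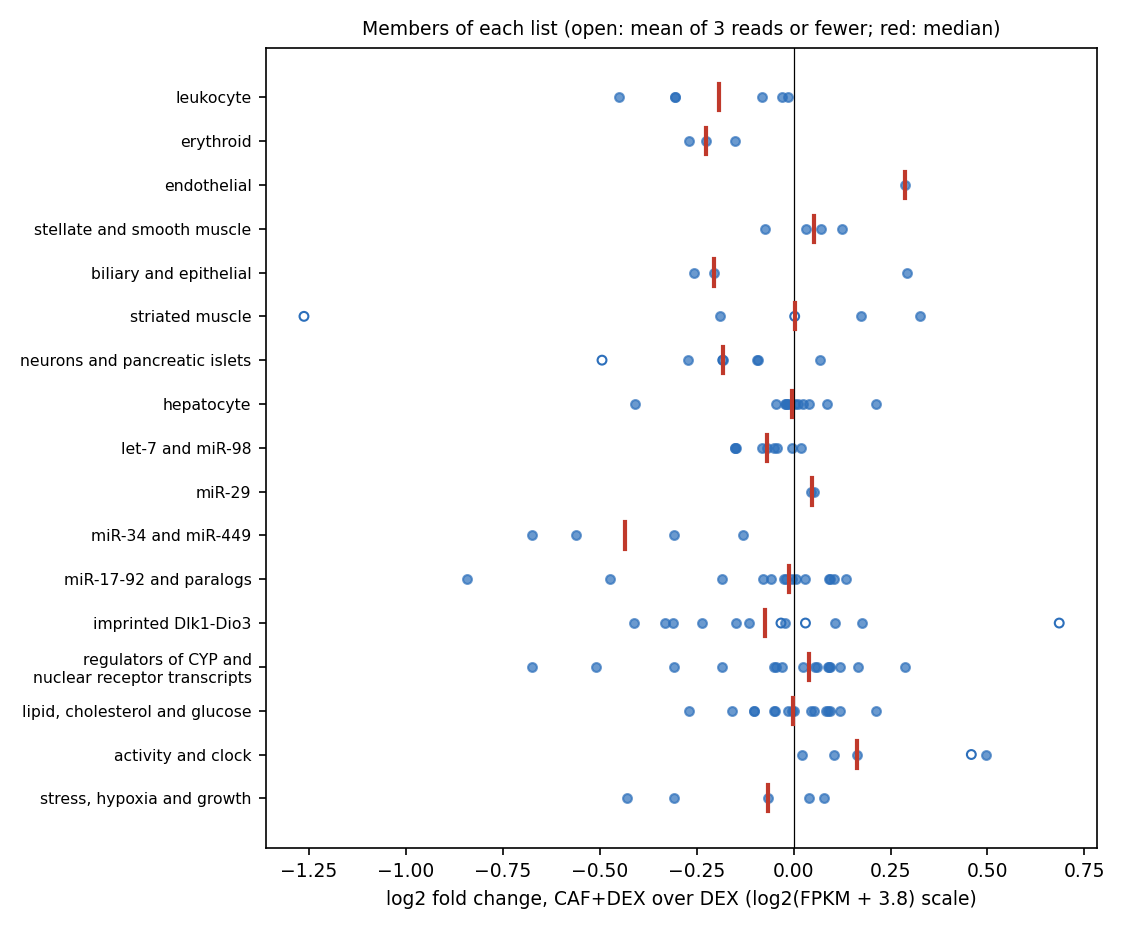
Log2 fold change of CAF+DEX over DEX (horizontal axis) for each member of 17 lists, with open circles for features averaging 3 reads or fewer over the 6 libraries and red bars for list medians. The leukocyte, erythroid and miR-34 lists have all members below 0, and the hepatocyte list is spread around 0.

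The remaining cell type lists, other than the 1 endothelial member, had members on both sides of 0. Of the stellate and smooth muscle microRNAs 3 were higher and 1 lower, with a list median of 0.05 on the log2 scale that was -0.05 without CAF+DEX library 1, and Mir199a2, Mir145 and Mir143 had 0.13 (SE 0.16), 0.07 (SE 0.11) and 0.03 (SE 0.14). Of the biliary and epithelial microRNAs 1 was higher and 2 lower. Mir200b had 5268, 8191 and 3219 FPKM in CAF+DEX, against 7919, 6738 and 4453 FPKM in DEX, and Mir429 beside it ran in parallel, so the CAF+DEX libraries spread more than the groups differed. Mir141 of the same list had 0.29 (SE 0.20). The gene that the table names Mir126a, to which RefSeq gives the mature rno-miR-126b, was listed as that endothelial member by its name only. It averaged 14.3 reads in CAF+DEX and 11.7 reads in DEX.

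In the striated muscle list, 3 members were higher and 2 lower. Mir1b had 1616, 3736 and 4053 FPKM in CAF+DEX, against 2120, 2778 and 2114 FPKM in DEX, and Mir206 had a log2 fold change of -0.19 (SE 0.61). Mir208b, a microRNA within the slow myosin gene Myh7, had 1, 0 and 1 reads in CAF+DEX, against 3, 4 and 3 reads in DEX, or 2 reads against 10 in all. The ratio of these sums was 0.196 (95% exact counting interval 0.021 to 0.918, covering counting error only), and the fitted log2 fold change moved with the pseudocount, between -2.09 and -0.25. Mir208b was named for its small p, and its Benjamini-Hochberg adjusted p = 0.54 in limma. Of the neuron and islet microRNAs 1 was higher and 6 lower, with a median of -0.18 that was -0.02 without CAF+DEX library 1. The 6 include 2 pairs of copies, Mir128-1 with Mir128-2 and Mir129-1 with Mir129-2. Each pair shares 1 mature sequence and therefore 1 signal. Of the 7 members, 5 averaged over 3 reads. Mir7-1 of that list had 28562, 28517 and 32252 FPKM in CAF+DEX, against 35085, 33827 and 32322 FPKM in DEX, a separation with a log2 fold change of -0.18 (SE 0.10). The gene named Mir9 there carries the mature rno-miR-7b per RefSeq and had -0.27 (SE 0.27).

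The activity and clock list had 5 of 5 members higher, or 4 of 5 under quantile normalization, where 45.2% of all features were higher under the main scaling. The list median was 0.16 on the log2 scale, or 0.03 without DEX library 1 and 0.50 without CAF+DEX library 5. Of the 5 members, 4 averaged over 3 reads, and Mir96 and Mir182 are neighbours on chromosome 4. In all 5 the groups overlapped. Mir132, induced by the transcription factor CREB in neurons, had 47.2, 21.3 and 26.5 FPKM in CAF+DEX, against 16.8, 18.4 and 26.5 FPKM in DEX, with averages of 10.3 reads in CAF+DEX and 6.67 reads in DEX. Its log2 fold change was 0.50 (SE 0.39), or 0.20 without CAF+DEX library 1. Mir96 had 0.16 (SE 0.38) and turned to -0.24 without CAF+DEX library 2. The stress, hypoxia and growth list had 2 members higher and 3 lower, with a median of -0.07, or -0.22 without CAF+DEX library 1 and -0.01 without DEX library 4. Mir221 in it had 2037, 1394 and 1138 FPKM in CAF+DEX, against 2336, 1479 and 2294 FPKM in DEX, and a log2 fold change of -0.43 (SE 0.25), or -0.24 without CAF+DEX library 5 and -0.66 without CAF+DEX library 1.

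Among rare features, Mir187 (chromosome 18, 15731194 to 15731297) had 28, 42 and 35 reads in CAF+DEX, against 47, 59 and 59 reads in DEX. The groups did not overlap in FPKM, and the log2 fold change was -0.68 (SE 0.23, Benjamini-Hochberg adjusted p = 0.507 in limma). Mir6216 had 3, 4 and 2 reads in CAF+DEX, against 8, 8 and 5 reads in DEX, with a log2 fold change of -1.04 (SE 0.36) that was -0.41 with a pseudocount 10 times larger. Mir484 averaged 1.00 read in CAF+DEX and 2.67 reads in DEX, too few for a fold. Of the 19 features with an unadjusted p under 0.05, 3 more average over 3 reads and were chosen after their values were seen. Mir339 had 21003, 20482 and 21838 FPKM in CAF+DEX, against 19196, 20229 and 18684 FPKM in DEX, with a log2 fold change of 0.12 (SE 0.05). Mir1247 had 16, 15 and 22 reads in CAF+DEX, against 11, 7 and 8 reads in DEX, with a log2 fold change of 0.92 (SE 0.40). The unnamed microRNA gene ENSRNOG00000066772 on chromosome 14 (43345858 to 43345940) had 2744, 2811 and 2764 FPKM in CAF+DEX, against 2575, 2480 and 2146 FPKM in DEX. All 3 were higher in CAF+DEX without overlap, and the last had a log2 fold change of 0.21 (SE 0.09).

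Imprinted microRNAs of the Dlk1-Dio3 region, which are high in embryonic tissue, had 12 of 34 listed genes among the features, of which 4 were higher and 8 lower, and the list median was -0.07 on the log2 scale. Under quantile normalization 8 of the 12 were higher, and the median was -0.38 without CAF+DEX library 2 and 0.23 without CAF+DEX library 5. In the group on chromosome 6 at 128538902 to 128549177, Mir337, Mir127 and Mir136 were all lower. Mir136 had 120, 135 and 79.8 FPKM in CAF+DEX, against 132.7, 162.0 and 123.3 FPKM in DEX, with overlap and a log2 fold change of -0.33 (SE 0.30). Mir127, encoded opposite the Rtl1 gene like Mir136, had 62.3, 184 and 27.6 FPKM in CAF+DEX, against 52.6, 143.3 and 85.8 FPKM in DEX, so its libraries ranged widely in both groups. On the X chromosome at 146662031 to 146667484, Mir3585 and Mir547 were lower and Mir201 higher, with averages of 3.67 to 8.67 reads. Mir293, first of a group on chromosome 1 (65963050 to 65964431) known from embryonic stem cells, had 8.8, 166.6 and 128.1 FPKM in CAF+DEX, against 321, 330 and 95 FPKM in DEX, and an SE of 1.02 on its log2 fold change of -1.75, which was -0.56 without CAF+DEX library 1. The other 3 of that group averaged 0.333 to 2.50 reads. Of the 8 other groups of at least 3 neighbouring genes, the medians ranged from -0.06 to 0.12.

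Caffeine was also given without dextromethorphan, in CAF and Control, which share no library with CAF+DEX and DEX. In that comparison 2 of 272 features (0.735%) passed the threshold, and 38 (14%) had an unadjusted p under 0.05. The 2 were Mir142 and Mir146a, which fell in CAF with log2 fold changes of -0.60 (SE 0.12) and -0.49 (SE 0.09), each with a Benjamini-Hochberg adjusted p = 0.0317 in limma. Mir146a thus had differences of -0.45 with dextromethorphan and -0.49 without, and the difference between them was 0.04 (95% interval -0.25 to 0.33). For Mir142 that difference was 0.29 (SE 0.16). Mir15b, Mir322-2 and Mir152 had differences of -0.24, 0.20 and 0.17 in CAF+DEX over DEX and of -0.24, 0.19 and 0.17 in CAF over Control. Other features with a small p in CAF+DEX over DEX did not match in this way. The difference of rno-mir-335 was 0.31 in CAF+DEX over DEX and -0.06 (SE 0.10) in CAF over Control. For Mir6216 these were -1.04 and -0.08 (SE 0.36 for each).

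Features whose groups separated in the same direction in both caffeine comparisons were few. In CAF over Control on its own, 24 features lay below without overlap (8.82%) and 18 above (6.62%). Below in both were 6 of 272 (2.21%), namely Mir142, Mir146a, Mir15b, Mir187, Mir20b and Mir342. Above in both were 3 (1.1%), namely Mir152, Mir322-2 and ENSRNOG00000066772. Across features, 163 of 272 (59.9%) lay on the same side of 0 in both comparisons, with a Pearson correlation of 0.04 and a Spearman correlation of 0.15. Among the 135 averaging at least 100 reads, 93 (68.9%) did, with correlations of 0.35 and 0.49. These describe features, which are not independent replicates. The leukocyte list had a median of -0.19 in CAF+DEX over DEX and -0.50 in CAF over Control. Its 6 members all had a positive interaction term, with a median of 0.28, from 0.04 for Mir146a to 0.58 for Mir155. The interaction passed the threshold for 0 of 272 features, and the members were measured in the same libraries, so their terms are not independent. The 3 erythroid members had positive terms too, with a median of 0.26, and over all features 48.9% were positive, with a median of -0.00.

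**Figure D5:**
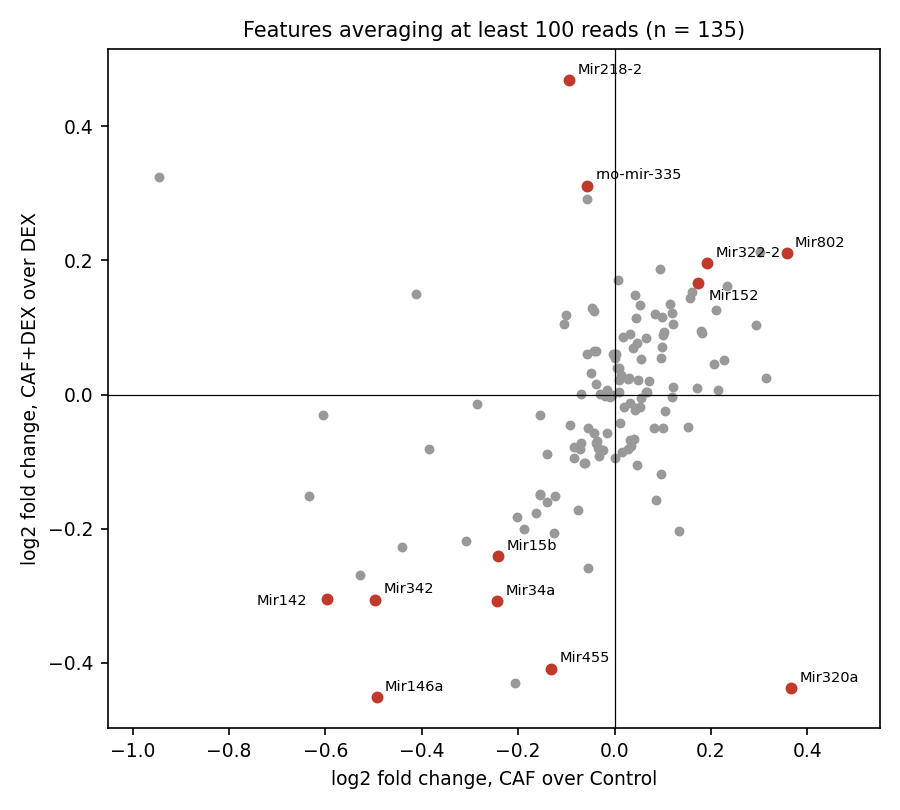
Log2 fold change of CAF+DEX over DEX (vertical axis) against that of CAF over Control (horizontal axis) for the 135 features averaging at least 100 reads, with named features in red. Mir146a, Mir142, Mir342 and Mir15b lie in the lower left, Mir322-2 and Mir152 in the upper right, and Mir218-2 stands highest on the vertical axis and just left of 0.

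Whether the caffeine difference depended on dextromethorphan was tested by the interaction term. With limma and Benjamini-Hochberg adjustment it was called for 0 of 272 features (0%), and 15 (5.51%) had an unadjusted p under 0.05. The 3 with the smallest p were Mir136, Mir320a and Mir218-2, each with a Benjamini-Hochberg adjusted p = 0.866 in limma. Mir218-2 (chromosome 10, 20068451 to 20068560), which lies within the Slit3 gene in human and mouse, had 1227, 1279 and 1247 FPKM in CAF+DEX, against 788, 784 and 1190 FPKM in DEX. Its CAF+DEX values all lay above the DEX values, and DEX library 4 stood apart from the other DEX libraries. The log2 fold change was 0.47 (SE 0.14, Benjamini-Hochberg adjusted p = 0.507 in limma), or 0.67 without DEX library 4, when it passed the threshold. In the absence of dextromethorphan it had 1013, 1087 and 1103 FPKM in CAF, against 1111, 1105 and 1203 FPKM in Control, a log2 fold change of -0.09 (SE 0.14). Mir320a had log2 fold changes of -0.44 (SE 0.20) in CAF+DEX over DEX and 0.37 (SE 0.20) in CAF over Control, with overlapping groups in the first, which was -0.24 without CAF+DEX library 2. Mir136 had -0.33 (SE 0.30) in CAF+DEX over DEX, or -0.12 without CAF+DEX library 5, and 1.04 (SE 0.30) in CAF over Control.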

How the data were processed

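MicroRNA sequencing was done on rat liver with a QIAseq small RNA kit, per the labels' protocols. The submitters' processing notes name the tools cutadapt 3.7, STAR 2.7.11b and featureCounts (Subread 2.0.6) and the build rn7, but no settings. Collapsing of the kit's molecular indices is not stated in these sources. The deposited values are FPKM per gene, made by the authors and scaled to the reads on the listed features. Read numbers were recovered from FPKM, length and the library total in steps of 0.01 read, and 50.5 to 58.3% of values above 0 were whole reads, so the main test was not a count test, and recovered reads served limma-voom as an alternative and counting intervals. Shared reads make copies with 1 mature sequence a single signal, but the list counts are counts of genes and take each copy separately.

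Values were taken as log2(FPKM + 3.8), the 10th percentile of values above 0, a scale that shrinks differences of rare features. A limma-trend model took all 12 libraries with 4 group means (limma 3.58.1, R 4.3.3), with Benjamini-Hochberg adjustment over 272 features and a threshold of 0.05. The test was tested on simulated data with changes placed only in features averaging at least 100 reads but holding a small share of reads. The spread among simulated libraries was capped. That simulation gives no measure of power for rarer features or for the most abundant ones, such as Mir146a, Mir142 and Mir16. Features averaging 3 reads or fewer in both groups get no fold. Library numbers are those of the table's columns and were matched to groups, not to sample titles. The members and lists were chosen with earlier results of these data known.

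Features were named by rule: the 15 with the smallest p, the 5 most abundant, the blood cell lists and a few fixed microRNAs, up to 3 per other list, calls in CAF against Control, the 3 smallest interaction p-values and the 3 gene groups with the largest absolute medians. Positions are those of the deposited table, on rn7. Alternatives covered the pseudocount, filters, scaling, limma-voom, the libraries fitted, leaving out each library and, chosen after seeing the data, a block on the column numbers.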

Additional observations from a re-analysis of the deposited data

Results flagged for a closer look

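Mir218-2 was singled out because its values were ordered in opposite directions in CAF+DEX over DEX and in CAF over Control. With dextromethorphan, all CAF+DEX libraries lay above all DEX libraries, and without it each CAF library lay below each Control library, though the highest CAF library had 1103 FPKM and the lowest Control library 1105 FPKM. The log2 fold change was 0.47 (SE 0.14) in CAF+DEX over DEX and -0.09 (SE 0.14) in CAF over Control, the second with a limma Benjamini-Hochberg adjusted p = 0.92. The difference between these log2 fold changes was 0.56 (SE 0.20), with a limma Benjamini-Hochberg adjusted p = 0.866 over the 272 features. Without DEX library 4 the interaction was called for 1 feature. No cause was tested.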

How the results depend on the processing

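No feature passed the threshold in CAF+DEX against DEX as reported, and 1 did under quantile normalization (Mir146a), without DEX library 4 (Mir218-2) and without Control library 3 (Mir146a), so leaving out 1 library gave 0 to 1 calls. Features with an unadjusted p under 0.05 numbered 19 as reported and 16 to 29 when 1 library was left out, with 29 without CAF library 1. The interaction gave 0 to 1 calls when 1 library was left out, the 1 being Mir218-2 without DEX library 4. The causes were not tested. Median scaling changed the split of features with an unadjusted p under 0.05 to 16 higher and 8 lower, against 7 higher and 12 lower as reported, and moved the median log2 fold change of all features to 0.03, against -0.02 as reported. Of the 77 named features with a fold, 50 kept their sign under all settings tried and 27 did not. Leaving out 1 CAF+DEX or DEX library moved 56 of the 77 by over 1.5 times or turned their sign, in 36 of them when the library was CAF+DEX library 5.

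Under quantile normalization, which gives each rank the same value in every library, the log2 fold change was 0.061 for Mir16, -0.058 for Mir26b, 0.016 for Mir150, 0.024 for Mir223, 0.016 for Mir206, -0.0068 for Mir19b2, 0.036 for Mir148a, -0.025 for Mir148b and 0.0504 for Mir34c. Under median scaling it was 0.044 for Mirlet7f2, 0.018 for Mir155, 0.035 for Mir223 and 0.0044 for Mir148a. With totals that left out the 10 most abundant features, Mirlet7f2 had 0.0028. Leaving out 1 library turned the sign of 21 features that lay near 0 or varied widely. The log2 fold change then ranged from -0.018 to 0.0800 for Mir192, from -0.019 to 0.057 for Mir101-2, from -0.049 to 0.033 for Mirlet7f2, and from -0.22 to 0.038 for Mir21. Among blood cell microRNAs it ranged from -0.27 to 0.076 for Mir150, from -0.24 to 0.10 for Mir155, and from -0.11 to 0.063 for Mir223. In the stromal, epithelial and muscle lists it ranged from -0.028 to 0.27 for Mir199a2, from -0.066 to 0.17 for Mir143, from -0.50 to 0.084 for Mir429, from -0.59 to 0.085 for Mir200b, and from -0.73 to 0.28 for Mir206. In the rest it ranged from -0.24 to 0.50 for Mir96, from -0.99 to 0.30 for Mir127, from -0.50 to 0.10 for Mir3585, and from -0.015 to 0.10 for Mir195. On the X chromosome and among the miR-148 seed mates it ranged from -0.0902 to 0.18 for Mir450a1, from -0.0039 to 0.18 for Mir450b-1, from -0.033 to 0.18 for Mir351, from -0.15 to 0.026 for Mir148a, and from -0.034 to 0.057 for Mir148b.

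Column numbers recur across groups but are not tied to sample titles. Of 11 pairs of libraries with the same number in different groups, 2 deviated together with a correlation over 0.1 (range -0.332 to 0.448). The 0.448 was between CAF+DEX library 2 and DEX library 2, which both belong to the main comparison. DEX library 4 and Control library 4 had 0.129. The main model did not pair libraries by these numbers. A replicate block on these numbers, chosen after seeing the data, gave 0 calls in CAF+DEX against DEX, 16 features with an unadjusted p under 0.05 and 0 calls for the interaction. Under the block the log2 fold change was -0.0058 for Mir101-2, 0.018 for Mirlet7f2, 0.023 for Mir21, 0.0018 for Mir150, 0.043 for Mir155, 0.061 for Mir223, 0.017 for rno-mir-486, -0.102 for Mir1b, 0.227 for Mir127 and 0.084 for Mir3585. The 3 libraries per group set the precision for abundant microRNAs, and counting sets it for the 53 features that averaged 3 reads or fewer in both groups. Reads need not be independent molecules.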
